A study of Porphyridium purpureum with 12 samples.

Results

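The 4 genes that encode the nitrate and nitrite reductases of the red microalga *Porphyridium purpureum* were followed in 12 RNA-seq libraries. They were taken by their identifiers from a count table of 9898 genes, and their annotation is that of the study. The study had listed all 4 among its differentially expressed genes from these same libraries. POR6787, POR8251 and POR3077 encode NADH-dependent nitrate reductase (NaR), and POR2445 encodes ferredoxin-nitrite reductase (NiR). All 4 passed the filter on low counts in every comparison. The libraries hold messenger RNA of strain 1380/1A grown under continuous light in photobioreactors and sampled as the nitrate of the medium ran down. Residual nitrate was 1.5 g/L in the nitrogen-replete condition (NR, start of the logarithmic phase), 0.6 g/L and 0.5 g/L in the 2 nitrogen-limited conditions (NL1 and NL2, before the stationary phase) and 0.3 g/L in the late nitrogen-depleted condition (LND, stationary phase). Each condition has 3 libraries. The conditions are successive points of 1 cultivation scheme, so nitrate, culture age and growth phase cannot be told apart. Nitrate was still present in LND, and no condition without nitrate was sampled. The labels call the libraries of a condition technical replicates from the same biological sample, so the p-values measure only the spread between libraries. The main text of the study also names technical replicates for each time point. A figure caption of the study names biological replicates instead, and the count table does not settle which holds.

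Algae take up nitrate through membrane transporters and reduce it in sequence. NaR, a molybdenum enzyme of the cytosol, turns nitrate into nitrite with electrons from NADH or NADPH. NiR, an enzyme of the chloroplast, then turns nitrite into ammonium with electrons from reduced ferredoxin, and ammonium enters amino acids through glutamine synthetase. In plants and green algae the genes of both enzymes are known for strong transcriptional control by the nitrogen source. Nitrite is toxic to cells, so the balance between both enzymes matters. The 3 NaR genes carry the same enzyme name and lie on the same scaffold, scf295_1, which also holds the 4 NRT2.5 nitrate transporter genes and 26.5% of all genes in the table. The NiR gene lies on scf236_6. How reads that match more than 1 NaR copy were counted is not given in the sources used here, so the split of reads among these copies is uncertain.

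The libraries held between 6398926 counts, in NR replicate 3, and 30556820 counts, in NL2 replicate 2. The 4 genes held 214 to 27223 counts per library. Levels are given as CPM, which are counts relative to the library size scaled by the TMM method. No gene lengths were used, so levels are compared between conditions within a gene and not between genes. Differences are log2 fold changes (log2FC) from edgeR's quasi-likelihood test, fitted on all genes of the 6 libraries of each pair of conditions, with Benjamini-Hochberg adjustment. A gene was called higher or lower where the adjusted p was under 0.01 and the log2FC reached 1 in size. NR replicate 3 was the library least like the others of its condition. Its genes differed from the mean of the other 2 by a median of 0.44 on the log2 scale, against 0.147 to 0.267 for the other 11 libraries, and the values without it are given beside the tests against NR. CPM are relative to the library, so in these bulk samples fewer transcripts of a gene per cell cannot be told apart from more RNA of other genes.

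POR6787, annotated as the NADH 2 form of NaR, had similar levels in NR, NL1 and NL2 and its lowest level in LND. Its CPM in replicates 1, 2 and 3 were 260, 239 and 370 for NR, 347, 323 and 387 for NL1, 347, 364 and 272 for NL2, and 36.9, 40.3 and 62.1 in LND. The first 9 values overlap between conditions, and every LND library lies far below the lowest of them. The mean CPM ± SD (n = 3) was 289.7 ± 70.5 for NR, 352 ± 32.1 for NL1, 328 ± 49.2 for NL2 and 46.4 ± 13.6 for LND.

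POR8251, a NaR gene annotated as an NADH 1 form, had nearly the same course. Its CPM were 123, 111 and 182 for NR, 127, 118 and 142 for NL1, 146, 143 and 95.4 for NL2, and 16.9, 17.9 and 23.9 in LND. Again NR, NL1 and NL2 overlap and LND stands below all of them. The mean CPM was 139 ± 38.0 for NR, 129 ± 11.8 for NL1, 128 ± 28.4 for NL2 and 19.6 ± 3.76 for LND, which is 14.1% of NR, against 16.0% for POR6787.

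POR3077, the other NaR gene annotated as an NADH 1 form, had another course, with its lower means in both NL2 and LND. Its CPM were 54.2, 55.7 and 29.3 for NR, 58.1, 45.0 and 22.5 for NL1, 27.3, 28.4 and 19.0 for NL2, and 16.9, 15.3 and 26.5 in LND. Replicate 3 of NR and of NL1 lies close to the NL2 and LND libraries, below the other libraries of its own condition. The mean CPM was 46.4 ± 14.8 for NR, 41.9 ± 18.0 for NL1, 24.9 ± 5.13 for NL2 and 19.6 ± 6.06 for LND, and the LND mean is 42.1% of that in NR. Its coefficient of variation in NL1 was 42.96%, above that of 92.6% of the genes in those libraries.

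POR2445, the NiR gene, was at its highest in both NL conditions. Its CPM were 407, 396 and 474 for NR, 759.9, 743 and 869.8 for NL1, 903, 862 and 768 for NL2, and 149, 150.5 and 186 in LND. NL1 and NL2 overlap with each other, all 6 lie above the NR libraries, and the LND libraries lie below all others. The mean CPM was 426 ± 42.4 for NR, 791 ± 68.8 for NL1, 845 ± 69.1 for NL2 and 162 ± 20.8 for LND. Relative to NR this is 186% in NL1, 198% in NL2 and 37.9% in LND.

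**Figure D1:**
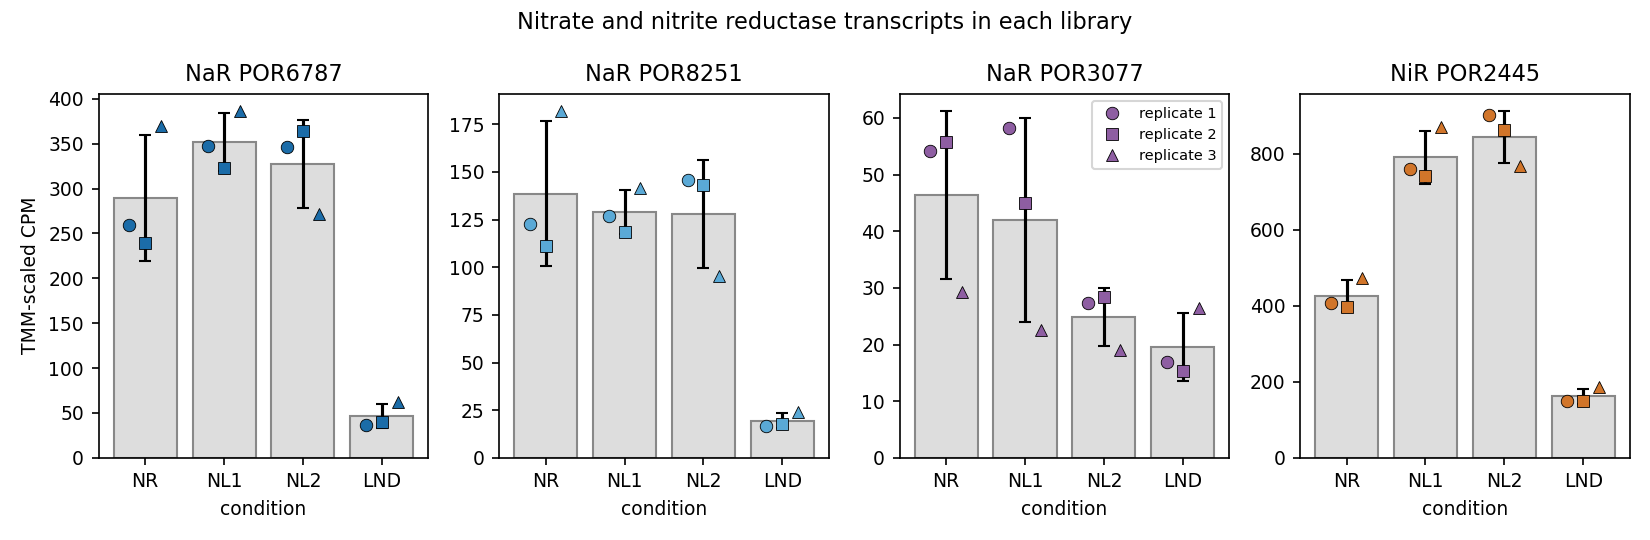
TMM-scaled CPM (vertical axis, from 0, with its own scale in each panel) of the 4 reductase genes in the 12 libraries by condition; bars are means, error bars are SD over 3 libraries, and markers are replicates 1, 2 and 3. POR6787, POR8251 and POR2445 have all LND libraries below every other library, while POR3077 has NR and NL1 replicates 3 (29.3 and 22.5 CPM) near the LND range of 15.3 to 26.5.

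The first question is how the reductases stood when nitrate had become limiting (NL1 and NL2 against NR). NiR had higher levels in both, short of the fold threshold, and none of the 3 NaR genes was called in either. The NiR gene POR2445 was 1.86-fold higher in NL1 (log2FC 0.90, SE 0.16, adjusted p = 0.0023 by edgeR's quasi-likelihood test) and 1.97-fold higher in NL2 (0.98, SE 0.14, adjusted p = 6.4e-04). Both p-values pass, but both folds are under the threshold of 1 on the log2 scale, so neither is a call. Of the 4 genes, 0 were called in NL1 vs. NR, 1 had an unadjusted p under 0.05 by edgeR, and DESeq2 also called 0. In that comparison 14.5% of all genes tested were called, 6.55% higher and 7.92% lower. In NL2 vs. NR the count was 0 by edgeR and 0 by DESeq2, with 2 at an unadjusted p under 0.05, against 16.4% of all genes called, 7.33% higher and 9.08% lower. Libraries of POR2445 did not overlap with NR in either comparison, which held upward for 25.4% of all genes in NL1 vs. NR and for 26.8% in NL2 vs. NR.

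The NaR genes lay closer to NR. POR6787 differed from NR by 0.29 (95% interval -0.14 to 0.72) in NL1 and by 0.17 (-0.26 to 0.60) in NL2. POR8251 differed by -0.10 (-0.54 to 0.35) and -0.12 (-0.62 to 0.39). Without NR replicate 3, NL1 vs. NR gave 0.50 for POR6787 (adjusted p = 0.0118 by edgeR), 0.15 for POR8251, -0.39 for POR3077 and 0.98 for POR2445, with no call. The intervals of POR6787 and POR8251 with all libraries leave room for differences of less than 1 on the log2 scale in either direction. POR3077 differed by -0.15 (-0.94 to 0.63) in NL1 and by -0.91 (-1.52 to -0.30, adjusted p = 0.0256 by edgeR) in NL2, where its libraries all lay below those of NR but the test was not passed. Without NR replicate 3, the values in NL2 vs. NR became 0.39 for POR6787, 0.13 for POR8251, -1.14 for POR3077 and 1.07 for POR2445, and the last 2 were then called (adjusted p = 3.2e-04 and 6.7e-06 by edgeR). POR2445 was also called without NL2 replicate 3, at 1.05. With both NL conditions taken as 1 phase in a fit of all 12 libraries, POR2445 differed from NR by 0.94 (SE 0.12, adjusted p = 1.3e-05 by edgeR) and POR3077 by -0.53 (adjusted p = 0.119). These values were 1.03, past the fold threshold, and -0.76 without NR replicate 3.

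Between the 2 NL conditions, which differ by 0.1 g/L of nitrate, 0 of the 4 genes were called by edgeR or DESeq2, and 0% of all genes were called by edgeR. The log2FC of NL2 vs. NL1 was -0.11 for POR6787, -0.01 for POR8251 and 0.09 for POR2445. For POR3077 it was -0.75 (95% interval -1.38 to -0.11), the only one of the 4 with an unadjusted p under 0.05 by edgeR (adjusted p = 0.521).

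The second question is how they stood in LND. The messages of both steps of nitrate reduction were lower there, and those of 2 NaR genes most. All 4 genes were called lower in LND vs. NR, where 11.8% of all genes tested were. The study had already listed these 4 as lower in LND vs. NR from the same libraries. The counts of calls among them, here and against NL1 and NL2, are therefore not independent evidence. POR8251 fell 7.37-fold (log2FC -2.88, SE 0.23, adjusted p = 1.1e-05 by edgeR's quasi-likelihood test), POR6787 fell 6.50-fold (-2.70, SE 0.24, adjusted p = 2.2e-05), POR2445 fell 2.75-fold (-1.46, SE 0.15, adjusted p = 5.0e-05) and POR3077 fell 2.49-fold (-1.32, SE 0.30, adjusted p = 0.0056). The libraries of both conditions did not overlap for any of them, as for 26.7% of all genes in this direction. Without NR replicate 3 all 4 were still called, at -2.64, -2.49, -1.38 and -1.55. The call of POR3077 ended without NR replicate 1 or 2 or without LND replicate 1 or 2 (adjusted p = 0.0188 to 0.0346 by edgeR), and with a replicate block in the fit (log2FC -1.31, adjusted p = 0.0164).

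Measured from the NL conditions, the NaR genes POR6787 and POR8251 fell by about the same size as from NR, and NiR fell further. In LND vs. NL1 all 4 genes were called lower, against 5.75% of all genes. For POR3077 the study had listed no significant difference in this comparison, from the same libraries. POR6787 fell 7.58-fold (log2FC -2.92, SE 0.18, adjusted p = 2.7e-08 by edgeR), POR8251 6.58-fold (-2.72, SE 0.15, adjusted p = 1.0e-08), POR2445 4.90-fold (-2.29, SE 0.13, adjusted p = 1.3e-08) and POR3077 2.13-fold (-1.09, SE 0.29, adjusted p = 0.0080). Only 11 of 9045 genes had a lower log2FC than POR6787, 14 than POR8251 and 38 than POR2445. A log2FC of -2 or lower, called or not, was found for 70 genes, 0.774% of those tested, among them these 3. The call of POR3077 again ended when any 1 of several libraries was left out. Its NL1 and LND libraries overlap (NL1 replicate 3 at 22.5 CPM, LND replicate 3 at 26.5), and the call ended without NL1 replicate 1 or 2 or LND replicate 1 or 2 (adjusted p = 0.0140 to 0.0488 by edgeR) and in a fit of all 12 libraries (-1.09, adjusted p = 0.0167).

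In LND vs. NL2, which shares the LND libraries with the comparisons above, 3 of the 4 genes were called lower, against 6.52% of all genes. POR6787 fell 7.03-fold (log2FC -2.81, adjusted p = 7.1e-09 by edgeR), POR8251 6.52-fold (-2.71, adjusted p = 1.3e-08) and POR2445 5.22-fold (-2.39, SE 0.11, adjusted p = 2.3e-10). Lower log2FC than these were found for 19, 26 and 44 of 9029 genes, and one of -2 or lower for 86 genes, 0.952% of those tested. In LND vs. NL1 and in this comparison the libraries of these 3 genes did not overlap, as for 25.7% and 26.0% of all genes in this direction. POR3077 was not called, with a log2FC of -0.34 (95% interval -0.83 to 0.14, adjusted p = 0.240). Its NL2 and LND libraries overlap, and its interval excludes a fall as large as those of the other 3 genes.

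**Figure D2:**
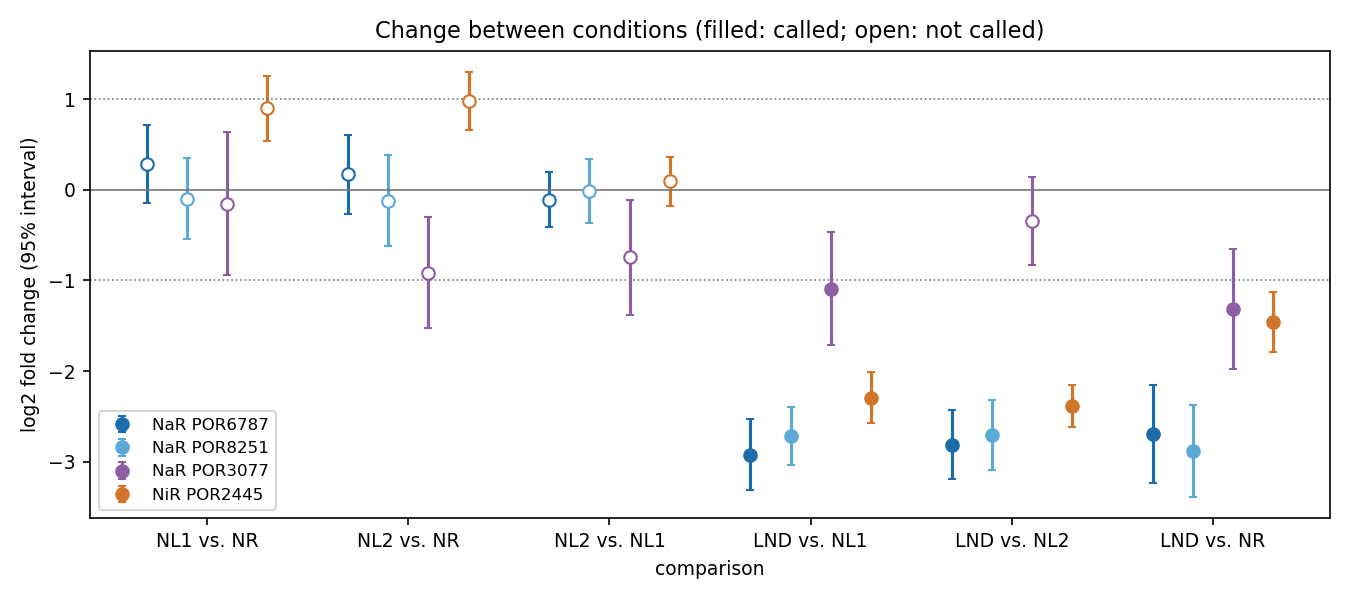
Log2FC with 95% intervals (vertical axis) of the 4 reductase genes in the 6 pairs of conditions (horizontal axis); filled points were called by edgeR, open points were not, and dotted lines mark the fold threshold of 1. POR2445 sits just under that line in NL1 vs. NR (0.90) and NL2 vs. NR (0.98), and POR3077 is the only open point in LND vs. NL2 (-0.34).

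Whether the step from NL to LND differed from the step from NR to NL was tested for each gene in the fit of all 12 libraries. The difference between steps was -3.28 on the log2 scale for POR2445 (SE 0.20, adjusted p = 5.2e-09 by edgeR), -3.10 for POR6787 (SE 0.29, adjusted p = 6.0e-07) and -2.61 for POR8251 (SE 0.29, adjusted p = 3.2e-06). For these 3 genes the second step was the lower one. A difference in this direction was called for 16.4% of all genes at an adjusted p under 0.01, with no fold threshold. POR3077 gave -0.19 (95% interval -1.15 to 0.78, adjusted p = 0.765), so no difference between its steps was detected, and the interval allows one of up to about 1 either way. Without NR replicate 3 its value was 0.05 and those of POR2445, POR6787 and POR8251 were -3.37, -3.32 and -2.85. From NL to LND as a whole, POR6787 fell by 2.87, POR8251 by 2.71 and POR2445 by 2.34 (adjusted p = 3.5e-08, 5.7e-08 and 4.1e-09 by edgeR), where 5.72% of all genes were called lower, and POR3077 gave -0.72 (adjusted p = 0.0605).

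The 3 NaR genes were also summed into 1 value per library, which does not depend on how reads were split among them but would still miss reads dropped for matching more than 1 copy. The sum was called lower in LND against NR (log2FC -2.53, adjusted p = 2.0e-05 by edgeR), NL1 (-2.61, adjusted p = 4.1e-08) and NL2 (-2.49, adjusted p = 1.9e-08). It differed by 0.15 in NL1 vs. NR, by 0.01 in NL2 vs. NR and by -0.12 in NL2 vs. NL1, with no call. The sum differed from NR by 0.32 in NL1, 0.19 in NL2 and -2.37 in LND when NR replicate 3 was left out. POR3077 gave 4.09% to 13.7% of the NaR counts in the 9 NR, NL1 and NL2 libraries and 20.8% to 23.9% in the 3 LND libraries. POR6787 gave 58.9% to 70.4% in the former and 52.2% to 55.2% in the latter. These shares are of counts, without regard to gene length.

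Ratios of the counts of 2 genes within a library do not depend on library scaling, and their change between conditions does not depend on gene length. For 6 pairs of genes they were compared between NR, NL (NL1 and NL2 together) and LND by exact two-sided permutation tests, 18 in all. The smallest p is 0.0238 with 3 libraries against 6 and 0.10 with 3 against 3, and no adjusted p was under 0.05. NiR relative to POR6787 was higher in every NL library than in NR, and higher again in every LND library. The ratio was 1.57, 1.65 and 1.28 for NR, 2.19, 2.30 and 2.25 for NL1, 2.61, 2.37 and 2.83 for NL2, and 4.03, 3.74 and 2.99 in LND. The mean log2 ratio was 0.69 higher in NL than in NR and 0.56 higher in LND than in NL (exact permutation p = 0.0238 each, the smallest possible, adjusted p = 0.0612). NiR relative to POR8251 was 1.03 higher in NL than in NR (exact permutation p = 0.0238, adjusted p = 0.0612). In LND it was 0.37 higher than in NL (exact permutation p = 0.0476, adjusted p = 0.0952), and there the libraries overlap (8.06 in NL2 replicate 3, 7.78 in LND replicate 3). The differences from NR to NL without NR replicate 3 were 0.58 relative to POR6787 and 0.90 relative to POR8251.

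Among the NaR genes, POR3077 had its highest share in LND. The ratio of POR3077 to POR6787 was 0.209, 0.233 and 0.0792 for NR, 0.168, 0.139 and 0.0583 for NL1, 0.0789, 0.0779 and 0.0700 for NL2, and 0.457, 0.380 and 0.427 in LND. All LND libraries lie above all others, and replicates 3 of NR and NL1 lie with NL2. The mean log2 ratio was 2.20 higher in LND than in NL, and that of POR3077 to POR8251 was 2.02 higher (exact permutation p = 0.0238 each, adjusted p = 0.0612). NiR relative to POR3077 was 1.64 lower in LND than in NL at the same p-values, and its NR and LND libraries overlap. The ratio of POR8251 to POR6787 varied little. It was 0.473, 0.465 and 0.492 for NR, 0.366 in each NL1 library, 0.420, 0.394 and 0.351 for NL2, and 0.459, 0.444 and 0.385 in LND. NR lies above all other libraries, and the mean log2 ratio was 0.34 lower in NL, or 0.32 without NR replicate 3 (with it, exact permutation p = 0.0238, adjusted p = 0.0612).

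**Figure D3:**
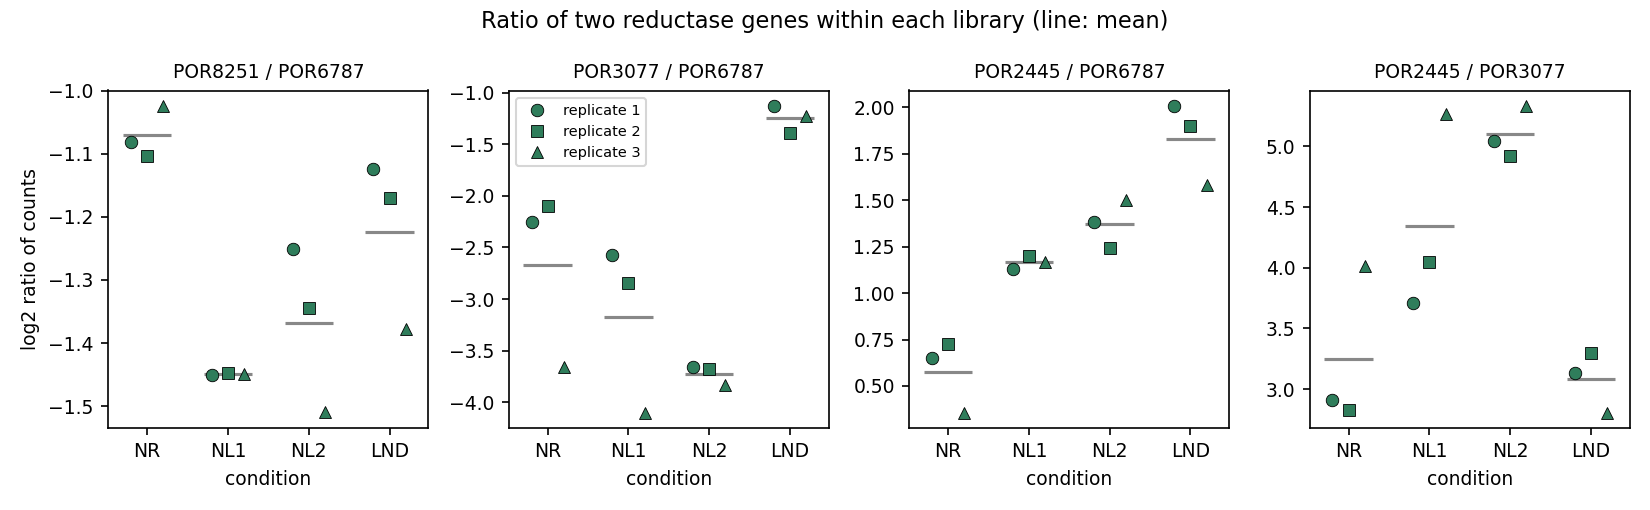
Log2 ratio of the counts of 2 reductase genes (vertical axis, with its own range in each panel) within each of the 12 libraries by condition; markers are replicates 1, 2 and 3 and lines are means of 3. NiR POR2445 relative to NaR POR6787 is higher in NL than in NR (by 0.69) and higher again in LND (by 0.56), and POR3077 relative to POR6787 is highest in the 3 LND libraries.

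Libraries of the same condition also differed, and 3 of the 4 reductase genes differed together. Each library was set against the mean of the other 2 of its condition on the log2 CPM scale. POR6787, POR8251 and POR2445 deviated in the same direction as each other in 12 of 12 libraries, while POR3077 shared that direction in 6 of 12. The 3 deviations within a condition are not independent of each other, and the deviations were not tested. How often other genes share a direction in this way was not examined. In NR replicate 3 the values were 0.57 for POR6787, 0.64 for POR8251, 0.24 for POR2445 and -0.90 for POR3077. In NL1 replicate 3 they were 0.21 for each of the first 3 and -1.18 for POR3077, and 2.91% of 9255 genes lay at least as far from the other NL1 libraries. In NL2 and LND all 4 genes deviated the same way. They were lower in NL2 replicate 3 (-0.39, -0.60, -0.20 and -0.55 for POR6787, POR8251, POR2445 and POR3077) and higher in LND replicate 3 (0.69, 0.45, 0.31 and 0.72). In the latter library 6.96% of genes lay as far as POR6787 and 6.37% as far as POR3077.

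**Figure D4:**
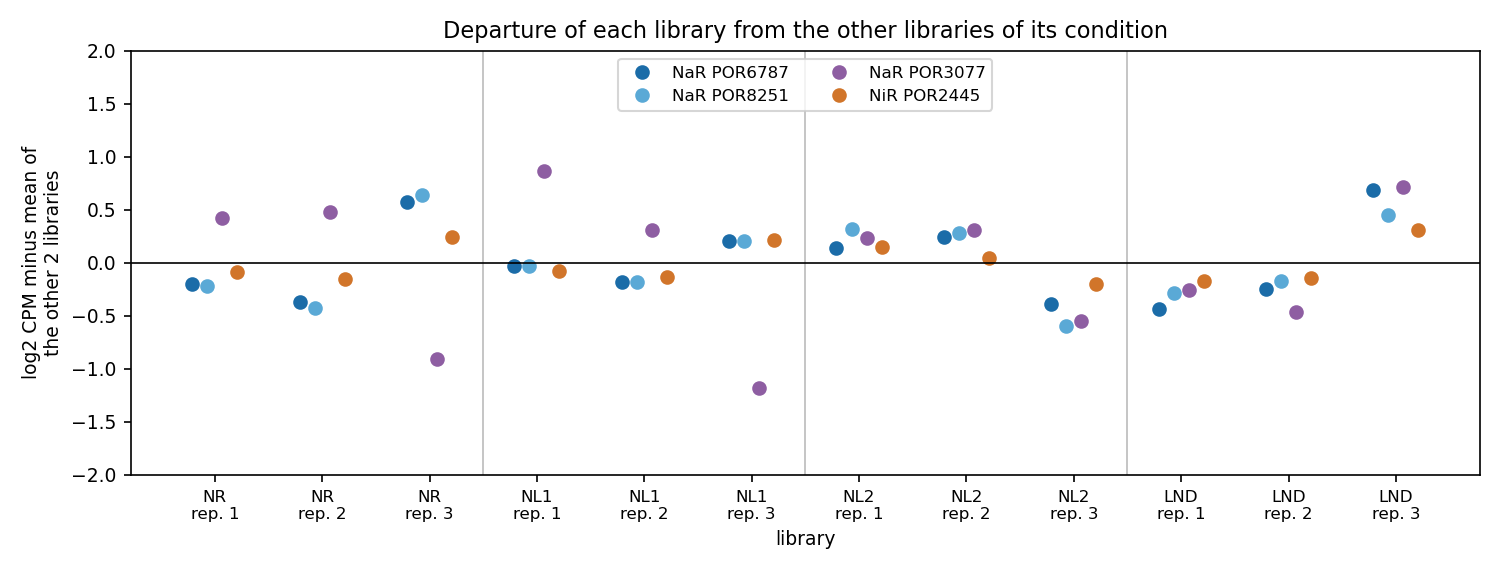
Log2 CPM of each library minus the mean of the other 2 libraries of its condition (vertical axis) for the 4 reductase genes in the 12 libraries (horizontal axis). POR6787, POR8251 and POR2445 lie on the same side of 0 in every library, and POR3077 lies on the other side in NR and NL1, down to -1.18 in NL1 replicate 3.

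The genes with the course most like each reductase were taken as those with the highest Pearson correlation of log2 CPM over the 12 libraries among 9255 genes. These correlations are a description over libraries that share their conditions. For POR6787, POR8251 and POR2445 the LND libraries lie apart from the rest, while POR3077 also varied within NR and NL1. The genes are given by identifier only. POR8251 was the gene most like POR6787 (r = 0.991), and POR6787 the one most like POR8251. NaR POR6787 was also followed by POR5772 (0.980), with 46.1, 57.3, 59.7 and 13.8 CPM in NR, NL1, NL2 and LND, and POR3197 (0.978), with 84.0, 108, 111 and 12.4. NiR POR2445 was followed most closely by POR1907 (0.992), with 77.9, 279.7, 308 and 21.9 CPM, and POR1331 (0.987), with 144, 236, 239 and 46.0. For POR3077 the highest values were those of POR8625 (0.952), POR7572 (0.926) and POR8092 (0.906). POR8625 had 1.00, 0.524, 0.146 and 0.105 CPM in the same order, and POR7572 had 1.19, 0.906, 0.0528 and 0.0392. Levels this low rest on few counts, so these 2 likenesses carry little weight. POR8092 had 30.3, 24.0, 19.2 and 15.1 CPM. A correlation over 0.9 was found for 106 genes with POR6787, 116 with POR8251, 162 with POR2445 and 3 with POR3077. Without NR replicate 3, 5 of the 5 closest genes of POR2445 stayed in its closest 5, but 2 of 5 for POR6787 and POR8251 and 1 of 5 for POR3077.

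The genes around the reductases in the pathway did not follow 1 course. The calls of these genes against NR given below were all kept without NR replicate 3. The petH, petF, transporter and assimilation genes are among those the study named on these same libraries. The other nitrogen-linked genes were picked with earlier results of these data known. The directions of all these genes are therefore not independent evidence. The ferredoxin-NADP reductase gene petH (POR1681), which in plants passes electrons between ferredoxin and NADP, rose from NR to both NL conditions and fell from both to LND. Its mean CPM was 416 ± 91.2 for NR, 975 ± 215 for NL1, 1251 ± 45.3 for NL2 and 441 ± 19.6 for LND. It was called higher in NL1 vs. NR (log2FC 1.23) and NL2 vs. NR (1.58) and lower in LND against NL1 (-1.15) and NL2 (-1.50), and differed by 0.02 in LND vs. NR. Its NL1 calls ended without NL1 replicate 3 (1.04 vs. NR with an adjusted p of 0.0102 by edgeR, and -0.93 in LND vs. NL1), and that in NL1 vs. NR also without NR replicate 1 (1.17) or 2 (1.13). The ferredoxin gene petF (POR8201), whose product donates electrons to NiR, had 39.5 ± 8.01, 69.6 ± 6.37, 64.0 ± 12.6 and 32.5 ± 6.40 CPM in the same order, and was called only in LND vs. NL1 (lower, -1.10, and -0.98 with no call without LND replicate 2). The NiR, petH and petF genes had their highest means in the NL conditions. In LND vs. NR petH and petF gave no call where NiR was lower.

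Of the 4 genes of NRT2.5, a high-affinity nitrate transporter, 3 were called lower and 1 not in NL1 vs. NR (7.92% of all genes lower), and 4 of 4 were lower in NL2 vs. NR (9.08% of all genes), 2 comparisons in which the 3 NaR genes gave no call. The call of POR7993 in NL2 vs. NR ended without NL2 replicate 1 (-1.36) or 3 (-1.27), and with a replicate block (-1.37, adjusted p = 0.0135 by edgeR). In LND against either NL condition, 2 were lower (POR8948 and POR1427), 1 was higher (POR6298, log2FC 2.93 and 2.72) and POR7993 was not called, where 5.75% of all genes were lower and 6.51% higher against NL1, and 6.52% lower and 6.96% higher against NL2. In LND vs. NR, POR8948 (-4.37) and POR1427 (-3.87) were called lower, where 11.8% of all genes were. POR6298 (0.92) and POR7993 (-0.81) were not called there. Glutamine synthetase (GlnS, POR7605), which takes up the ammonium that NiR makes, had a mean CPM of 161 ± 17.0 for NR, 301 ± 60.4 for NL1, 396 ± 19.1 for NL2 and 132 ± 21.2 for LND. It was called higher in NL2 vs. NR (1.29) and lower in LND against NL1 (-1.19) and NL2 (-1.58). Glutamate dehydrogenase (GluDH, POR3485), which links ammonium and glutamate, was called higher in LND vs. NR (2.04) and NL1 (1.03) and in both NL conditions vs. NR (1.08 and 1.24), with 0.86 and no call in LND vs. NL2. The call in NL1 vs. NR ended without NR replicate 1 (0.98) and, just under the fold threshold, with library totals in place of TMM. That in LND vs. NL1 ended without NL1 replicate 1 (0.96) and with library totals (0.72).

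A further list held 4 nitrogen-linked genes picked with earlier results of these data known, not all such genes. All 4 were called higher in LND against either NL condition, where POR6787, POR8251 and POR2445 all fell. Because of how they were picked, their shared direction is not independent evidence. They were the flavohemoprotein genes POR5270 (log2FC 3.79 and 4.14) and POR7105 (3.39 and 3.82), whose products detoxify nitric oxide in bacteria and yeast, the aspartate-ammonia ligase gene POR2648 (3.21 and 3.46), which makes asparagine from ammonium, and the SLAH3 gene POR7461 (1.67 and 1.94), an anion channel that carries nitrate in plants. Against NR, POR2648 and POR7105 were called lower in NL1 (-2.68 and -2.12) and in NL2 (-2.94 and -2.56). POR5270 was called lower in NL2 (-1.36), and POR7461 in neither. Of all genes 7.92% were called lower in NL1 and 9.08% in NL2. For these 3 genes the rise from NL to LND therefore starts below the NR level. In LND vs. NR 3 of the 4 were higher, and POR2648 was not called at 0.47. Without LND replicate 2 POR7105 was not called there (1.15, adjusted p = 0.0102 by edgeR), nor with library totals in place of TMM (0.90), which leaves 2 of the 4 higher. Of all genes 6.51% were called higher in LND against NL1, 6.96% against NL2 and 7.96% against NR.

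**Figure D5:**
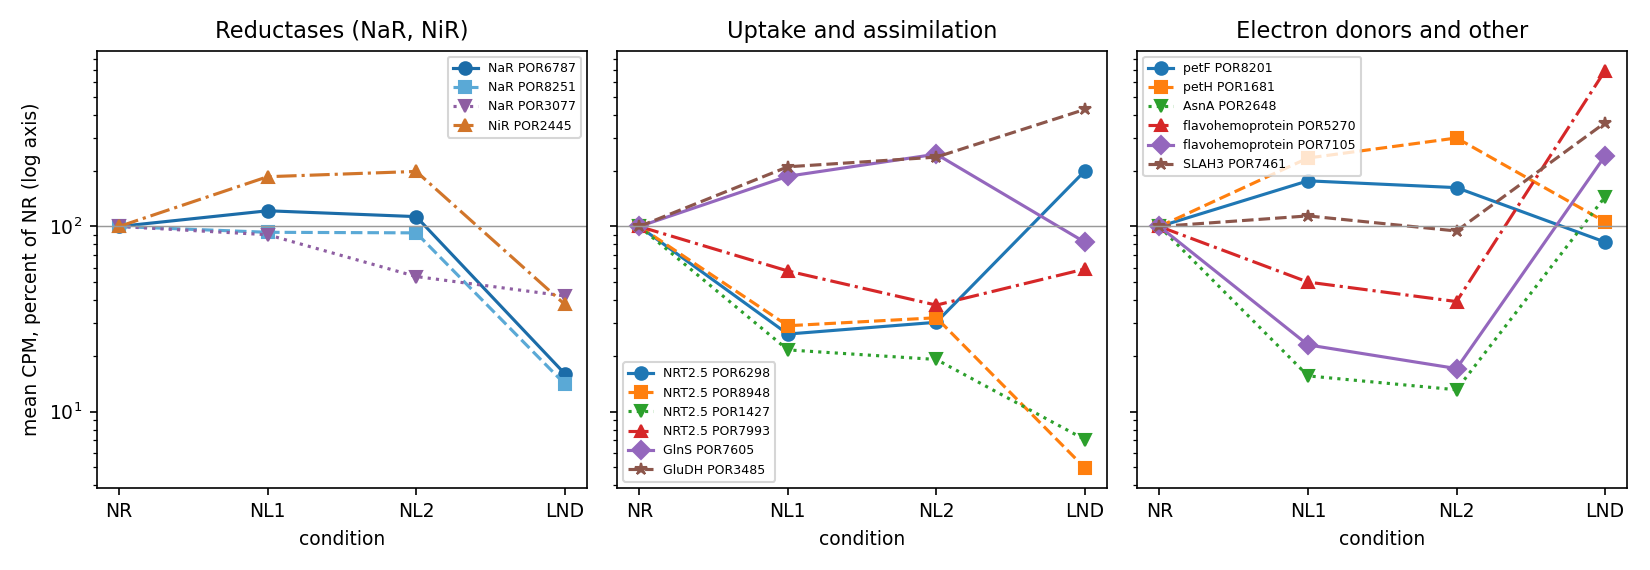
Mean CPM of each condition as a percent of NR (vertical axis, log scale) for the 4 reductase genes and the 12 other nitrogen genes, in the order NR, NL1, NL2, LND; the line at 100 is the NR mean. NiR POR2445 reaches 198% in NL2 and 37.9% in LND, POR6787 and POR8251 end at 16.0% and 14.1%, and flavohemoprotein POR5270 ends at 695%.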

How the data were processed

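Messenger RNA was sequenced as paired ends from 12 stranded libraries, which the authors mapped (STAR 2.7.8a) and summed per gene of the version 2 models (featureCounts 2.0.1). The deposited values are raw counts per gene, with no normalization, and 0 columns were left unmapped to a sample. Whether counting used strand is not given in the sources used here, so reads of overlapping genes on opposite strands may be mixed. Conditions were taken from the labels (ND was read as LND).

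Pairs of conditions were fitted each on 6 libraries with edgeR 4.0.16 in R 4.3.3 (TMM, filterByExpr with a minimum count of 10, quasi-likelihood F-test, Benjamini-Hochberg over all genes tested). Pooled contrasts used all 12 libraries. The SE is the log2FC divided by the square root of F, as a size. Ratios had a pseudocount of 0.5, and log2 CPM a prior count of 2. Replicate numbers were not used as pairs. Alternatives were DESeq2 1.42.0, other scalings and filters, 12 libraries in 1 fit, a replicate block and leaving out each library. The test was checked on simulated counts. The reductase genes, lists and named genes were chosen with earlier results of these data known.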

Additional observations from a re-analysis of the deposited data

Results flagged for a closer look

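The log2 ratio of NiR POR2445 to NaR POR8251 in the 6 NL libraries had 1 value far from the others. NL2 replicate 3 had a ratio of 8.06, against 5.98 to 6.28 in the other 5 libraries, and the gap was 0.838 of the whole range. Of 10 groups examined in this way 1 stood out. For any single group chance gives about 1 in 20. The groups share genes and libraries, so they are not independent, and each takes NL1 and NL2 together. In that library POR8251 had its lowest level of the 6 (95.4 CPM). The cause was not tested.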

How the results depend on the processing

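The falls of POR6787, POR8251 and POR2445 in LND kept their direction and their call under every alternative run and without each library. With library totals in place of TMM the median log2FC of all genes moved by -0.31 in LND against NR, -0.32 against NL1 and -0.29 against NL2, and the falls of the reductase genes grew by about as much. That scaling turned the sign of the 3 NaR genes summed in NL2 vs. NR (-0.071) and of POR6787 and POR8251 summed (-0.0013), both near 0. With no fold threshold POR2445 passed in NL1 vs. NR (0.90) and NL2 vs. NR (0.98). POR3077 lost its call in LND vs. NL1 with 12 libraries in 1 fit (-1.09). Replicate numbers did not pair the samples, since deviations of same-numbered libraries correlated at -0.22 to 0.10 and 4 of 18 matched best with their own number. A replicate block gave POR3077 -1.31 in LND vs. NR, without a call, and changed no other call of the reductase genes; it moved the calls over all genes from 1806 to 1723 in that comparison. Of the 5 genes most like POR6787, POR8251, POR3077 and POR2445, 0, 0, 1 and 1 stayed among the closest under Spearman's correlation.

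Leaving out 1 library at a time gave log2FC ranges in NL1 vs. NR of -0.23 to 0.15 for POR8251 and -0.46 to 0.15 for POR3077. In NL2 vs. NR they were -0.25 to 0.13 for POR8251, -1.14 to -0.75 for POR3077, 0.93 to 1.07 for POR2445, -0.087 to 0.19 for the 3 NaR genes summed and -0.040 to 0.31 for POR6787 and POR8251 summed, with 0 to 1 reductase genes called higher and 0 to 1 lower. For POR3077 they were -1.60 to -1.16 in LND against NR, -1.38 to -0.78 against NL1 and -0.52 to 0.12 in the difference between steps. In NL2 vs. NL1 they were -0.19 to 0.011 for POR6787, -0.11 to 0.16 for POR8251, -0.21 to 0.011 for the 3 NaR genes summed and -0.16 to 0.053 for POR6787 and POR8251 summed. In NL against NR with NL1 and NL2 pooled they were -0.24 to 0.14 for POR8251 and 0.89 to 1.03 for POR2445. The cause of these changes was not tested. The 95% intervals of POR3077 were the widest of the 4 reductase genes in each of the 6 pairs of conditions, which limits what can be said of its smaller differences.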
